A study of Homo sapiens with 4 samples.

Results

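The CDK inhibitor genes are the 7 genes of the INK4 and CIP/KIP families, CDKN2A, CDKN2B, CDKN2C and CDKN2D on one side and CDKN1A, CDKN1B and CDKN1C on the other. They were chosen by symbol, and all 7 were found among the 35606 genes of the count table. Their messenger RNA was measured in K562, a human chronic myelogenous leukaemia line, by directional RNA-seq of poly(A)-selected RNA. Of 4 libraries, 2 came from cells carrying JAZF1-SUZ12, a gene fusion known from endometrial stromal tumours that brings a JAZF1 sequence together with the Polycomb subunit SUZ12, and 2 from cells labelled mock. The labels name no age, dose or time, and how the fusion was introduced, what the mock cells received and whether the numbered libraries came from separate cultures are not given in the sources used here. The p-values therefore measure only the spread between these libraries, which may be technical.

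CDK inhibitors are small proteins that hold back the cell cycle by binding cyclin-dependent kinases. INK4 proteins bind CDK4 and CDK6 and keep them from the D-type cyclins, whereas CIP/KIP proteins bind whole cyclin-CDK complexes, those of CDK2 in particular. When the kinases are held, the retinoblastoma (RB) protein family keeps E2F factors from switching on genes for DNA synthesis. Polycomb complexes are known to repress several of these genes, most famously the locus that holds CDKN2A and CDKN2B, and CDKN1A is a classical target of p53. The comparison asked which CDK inhibitor transcripts differed between cells with and without the fusion.

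The libraries held between 17260936 and 24423028 estimated counts. The partner genes of the fusion stood as labelled: JAZF1 had 12 and 27 counts in mock and 574 and 731 counts in JAZF1-SUZ12 libraries, and SUZ12 had 2781 and 2798 against 4754 and 6582. Gene-level counts do not separate the fusion transcript from those of the endogenous genes. The source label gives uterus, but the markers were those of K562: the 9 erythroid markers examined summed to between 8545 and 8832 CPM in mock and between 10132 and 10232 CPM in JAZF1-SUZ12 libraries, with HBZ, HBE1 and HBG1 called higher, while 8 stromal markers summed to at most 6.02 CPM in any library and LUM was at 0 in all 4. The 3 lymphoid markers summed to at most 6.22 CPM. The 3 epithelial markers summed to between 861 and 918 CPM, nearly all of it KRT8. Among them EPCAM was called lower, at 60.1 ± 2.65 CPM in mock and 51.6 ± 3.65 CPM with the fusion (adjusted p = 0.0175 by edgeR), and CDH1 had at most 9 counts. The part of these marker differences in the results below was not tested. CPM are counts scaled to a library total of 1000000, and a value after ± is the SD over the 2 libraries of a group (n = 2). Of 14750 genes with enough counts to be tested, 24.7% passed an adjusted p of 0.05 in the quasi-likelihood test of edgeR, 13.3% higher and 11.4% lower in JAZF1-SUZ12 libraries.

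Among the CDK inhibitor genes, CDKN1A and CDKN1C rose in cells with the fusion, CDKN1B, CDKN2C and CDKN2D did not pass the test, and CDKN2A and CDKN2B were at or near 0 in every library. The 5 genes other than CDKN2A and CDKN2B passed the filter on low counts. The 2 calls among them were both of the CIP/KIP family, with 3 CIP/KIP and 2 INK4 genes tested. Over all tested genes 24.7% were called, 13.3% higher and 11.4% lower, and 5 genes are too few to set against that share. CDKN1A and CDKN1C were also the only ones whose groups did not overlap. Groups that did not overlap were found for 61.0% of all tested genes, so that separation by itself says little with 2 libraries a group. The plot of CPM by library shows the levels of the 7 genes.

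**Figure D1:**
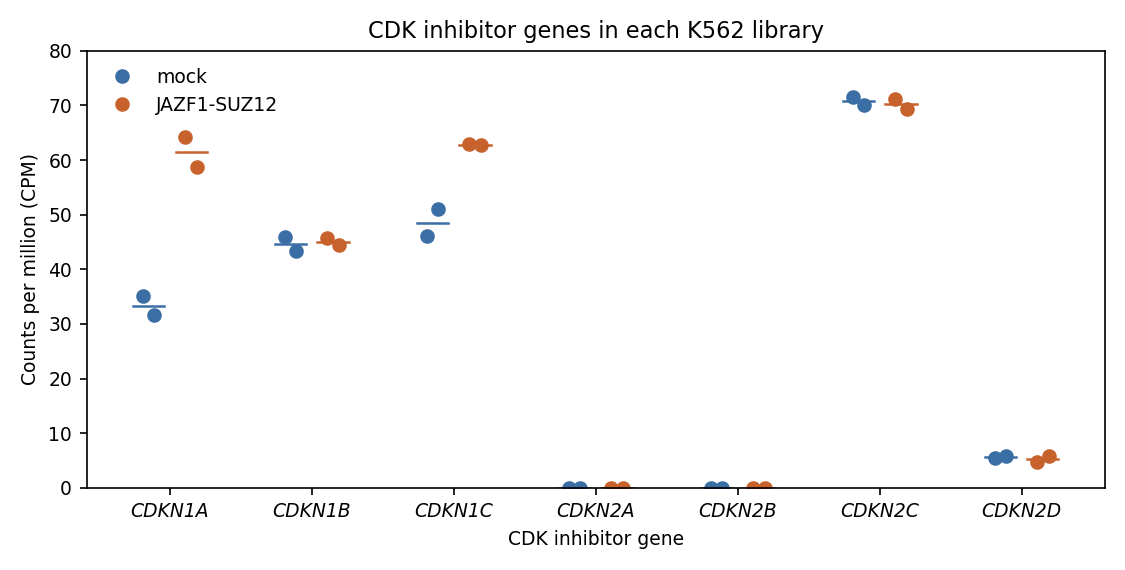
CPM of the 7 CDK inhibitor genes (vertical axis, linear from 0) in the 2 mock (blue) and 2 JAZF1-SUZ12 (orange) libraries; points are libraries and bars are group means. CDKN1A and CDKN1C lie higher in both JAZF1-SUZ12 libraries, CDKN1B, CDKN2C and CDKN2D overlap between groups, and CDKN2A and CDKN2B lie at 0 or at a single count.

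CDKN1A encodes p21, the CIP/KIP protein best known as an effector of cell-cycle arrest (ENSG00000124762; GRCh38 chromosome 6, 36676460 to 36687339, plus strand). It was measured at 35.0 and 31.6 CPM in the mock libraries and at 64.2 and 58.8 CPM in the JAZF1-SUZ12 libraries, from 716, 674, 1109 and 1436 estimated counts. Both JAZF1-SUZ12 libraries lay well above both mock libraries. The mean rose from 33.3 ± 2.39 to 61.5 ± 3.86 CPM. The fold was 1.81, with a 95% interval from 1.62 to 2.03. On the log2 scale the difference was 0.86 (SE 0.076; adjusted p = 5.85e-07 by edgeR, with the Benjamini-Hochberg method). Of all tested genes, 91.0% had a lower log2 fold change, and 111 had a smaller adjusted p. Among the genes called higher, 53.2% had a smaller log2 fold change, so CDKN1A lay near the middle of that group in size. The authors' deposited table gives 0.80 as its log2 fold change, with an adjusted p of 1.50e-07, and calls 4.93% of 15895 genes higher. In these bulk libraries, more cells with the transcript and more transcript per cell cannot be told apart.

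The sequence around the RefSeq start of CDKN1A is shown beside that of CDKN1B, the CIP/KIP gene that did not pass the test, because 1 was called and the other was not. RefSeq windows were matched for 6 of the 7 genes, all but CDKN1C. Each runs from 250 bases before to 50 bases after the start (RefSeq, GRCh38.p14), CDKN1A at chr6:36678464-36678763 and CDKN1B at chr12:12717118-12717417, both on the plus strand. Capitals mark GC boxes, the letters GGGCGG or their reverse complement CCGCCC, which are the core of the motif bound by SP1 and its relatives.
CDKN1A: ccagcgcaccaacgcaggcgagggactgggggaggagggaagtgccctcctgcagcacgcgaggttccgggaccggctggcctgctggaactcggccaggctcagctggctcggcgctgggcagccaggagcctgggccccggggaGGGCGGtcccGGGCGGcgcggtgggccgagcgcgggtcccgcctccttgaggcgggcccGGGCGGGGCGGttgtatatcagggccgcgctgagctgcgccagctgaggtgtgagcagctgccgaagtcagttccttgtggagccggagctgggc
CDKN1B: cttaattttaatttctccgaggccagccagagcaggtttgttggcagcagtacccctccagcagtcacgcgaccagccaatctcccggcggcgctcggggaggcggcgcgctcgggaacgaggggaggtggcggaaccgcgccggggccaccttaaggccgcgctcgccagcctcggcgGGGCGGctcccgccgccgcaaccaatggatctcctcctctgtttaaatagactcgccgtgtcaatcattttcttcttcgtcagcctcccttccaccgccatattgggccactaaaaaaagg
The CDKN1A window held 4 GC boxes, of which 2 share a G-rich run and overlap, and the CDKN1B window held 1. The number of GC boxes did not follow the calls. CDKN2C, which was not called, held 0, 6 and 1 in its windows, and CDKN2D, also not called, held 3. A GC box was found in 44.9% of 34943 RefSeq windows of the same length. Both windows held 29 CpG dinucleotides, more than 75.8% of all windows. The CCAAT box, searched as CCAAT on both strands, occurred 3 times in the CDKN1B window and not in that of CDKN1A, and 34.6% of all windows held it. Neither held the TATA box TATAAA (11.6% of windows), the GATA motif AGATAA (10.4%), the STAT motif TTCNNNGAA (7.66%), the E2F motif TTCCCGCC (3.15%) or the E-box CACGTG (7.23%), each searched on both strands. These are matches of letters only.

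CDKN1C encodes p57, a CIP/KIP protein known for restraining growth in the embryo (ENSG00000129757; chromosome 11, 2883213 to 2885773, minus strand). The gene lies in the imprinted domain of 11p15.5 and is expressed mainly from the maternal copy. The mock libraries gave 46.0 and 51.1 CPM and the JAZF1-SUZ12 libraries 62.9 and 62.7 CPM, from 941, 1088, 1086 and 1531 counts. The groups did not overlap, and the JAZF1-SUZ12 pair lay closer together than the mock pair. The mean rose from 48.6 ± 3.58 to 62.8 ± 0.163 CPM, which was a 1.27-fold change with a 95% interval from 1.15 to 1.41. This is 0.35 on the log2 scale (SE 0.067; adjusted p = 0.00137 by edgeR). Only 22.8% of the genes called higher had a smaller log2 fold change than CDKN1C, and 1012 tested genes had a smaller adjusted p. Leaving out a mock library moved the log2 fold change to 0.27 (without replicate 1) or 0.42 (without replicate 2), and the call held in both fits. In the authors' deposited table its log2 fold change was likewise 0.35, with an adjusted p of 0.0461. For the fusion partners the authors' deposited table differs more from the fit of the deposited counts, with log2 fold changes of 6.82 against 5.05 for JAZF1 and 1.26 against 1.01 for SUZ12. Whether that table was made from the same counts is not given in the sources used here.

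Other genes of 11p15.5 were listed to see what the neighbourhood of CDKN1C did. Of 18 listed genes, 15 were matched in the table and 10 were tested: 1 was called higher and 2 lower. That is 30% in either direction, against a background share of 24.7%. The median log2 fold change was -0.0031, against 0.0032 over all genes tested. IGF2, the growth factor expressed from the paternal copy, had 14 and 18 counts in mock and 134 and 200 counts in JAZF1-SUZ12 libraries. It rose from 0.765 ± 0.113 to 7.98 ± 0.301 CPM, or by 3.35 on the log2 scale (adjusted p = 1.85e-07 by edgeR). Of the imprinted neighbours on the CDKN1C side of the domain, SLC22A18 and PHLDA2 did not pass the test and KCNQ1 was not tested. SLC22A18, a transporter gene and the nearest protein-coding neighbour on the higher-coordinate side, was at 13.6 ± 1.33 CPM in mock and 16.2 ± 0.612 CPM with the fusion (edgeR, adjusted p = 0.177). PHLDA2, a growth-restraining gene of the placenta, was at 24.2 and 23.6 CPM in mock and 22.2 and 19.8 CPM in JAZF1-SUZ12 libraries (edgeR, adjusted p = 0.119). KCNQ1, the nearest protein-coding neighbour on the other side and a potassium channel gene, had 2 counts in each mock library and 5 and 12 in JAZF1-SUZ12 libraries, too few to test. NAP1L4, a histone chaperone gene, and TSSC4 fell by 0.16 and 0.24 on the log2 scale (edgeR, adjusted p = 0.0207 and 0.0482). Neither call held without JAZF1-SUZ12 replicate 2 (adjusted p = 0.147 and 0.223), nor NAP1L4 without mock replicate 2 (0.0644) or TSSC4 without mock replicate 1 (0.244). TSSC4 also did not pass with total counts (adjusted p = 0.0777), DESeq2 (0.222), limma-voom (0.0509) or the filter at a mean of 50 counts (0.0698), with 0.0378 the lowest of its 7 alternative fits with all libraries. Without JAZF1-SUZ12 replicate 2, IGF2 was the only gene of the list still called. The remaining tested genes, CARS1, CD81, OSBPL5, MRPL23 and ASCL2, had adjusted p-values from 0.165 to 0.998 (edgeR).

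CDKN1B encodes p27, the CIP/KIP protein linked to quiescence and controlled largely through protein turnover (ENSG00000111276; chromosome 12, 12715058 to 12722371, plus strand). Its levels were 45.8 and 43.3 CPM in mock and 45.7 and 44.5 CPM in JAZF1-SUZ12 libraries. All 4 values lay within a span smaller than the gap seen for CDKN1C. On the log2 scale they differed by -0.0069 (SE 0.068; adjusted p = 0.956 by edgeR). Its 95% interval ran from 0.900-fold to 1.10-fold, and the sign of the estimate changed with the scaling. A rise of the size measured for CDKN1A lies outside that interval.

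Ratios within a library do not depend on how libraries are scaled to each other. CDKN1A had 0.764 and 0.731 times the counts of CDKN1B in the mock libraries and 1.41 and 1.32 times in the JAZF1-SUZ12 libraries, so the order of their counts was the opposite in the groups. CDKN1C had 1.004 and 1.18 times the counts of CDKN1B in mock and 1.38 and 1.41 times with the fusion. CDKN2C gave 1.56 and 1.62 in mock and 1.56 in both JAZF1-SUZ12 libraries. These ratios compare counts, which also depend on transcript length, so only their change between libraries can be read.

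CDKN2C encodes p18, an INK4 protein of blood and other progenitor cells (ENSG00000123080; chromosome 1, 50960745 to 50974633, plus strand). With 1464, 1494, 1230 and 1693 counts it had the most counts of the 7 genes in every library. It was measured at 71.6 and 70.2 CPM in mock and at 71.3 and 69.3 CPM in JAZF1-SUZ12 libraries, and the groups overlapped. The difference was -0.035 on the log2 scale (SE 0.059; adjusted p = 0.717 by edgeR), and the 95% interval ran from 0.895-fold to 1.06-fold. Its 5' end lies 482 bases from that of FAF1, which is read from the opposite strand and was not called either (edgeR, adjusted p = 0.665). RefSeq gives 3 starts for CDKN2C in the table used. They differ widely in base composition, with 8, 37 and 11 CpG dinucleotides in their windows, and gene-level counts do not say which one was used.

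CDKN2D encodes p19, the INK4 protein whose level is known to vary through the cell cycle (ENSG00000129355; chromosome 19, 10566462 to 10569059, minus strand). It had 112 and 126 counts in mock and 83 and 144 in JAZF1-SUZ12 libraries, or 5.48, 5.92, 4.81 and 5.90 CPM in that order. Both the lowest value and one close to the highest came from JAZF1-SUZ12 libraries. The estimate was -0.10 on the log2 scale (SE 0.19; adjusted p = 0.747 by edgeR). The 95% interval ran from 0.699-fold to 1.24-fold.

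**Figure D2:**
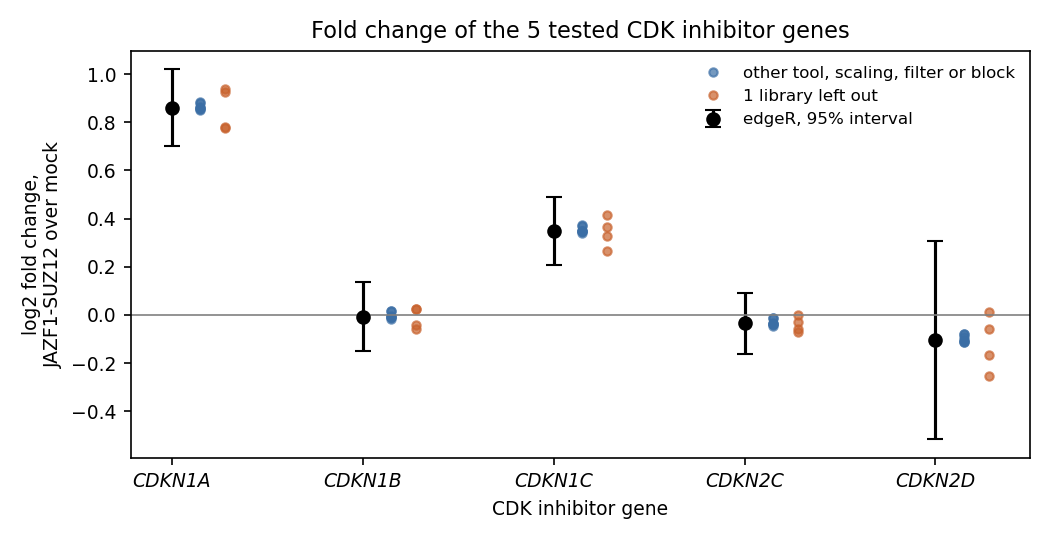
Log2 fold change of JAZF1-SUZ12 over mock (vertical axis) for the 5 tested CDK inhibitor genes, as the edgeR estimate with its 95% interval (black), under another tool, scaling, filter or replicate block (blue) and with 1 library left out (orange). CDKN1A and CDKN1C stay above 0 in all of these fits, whereas CDKN1B and CDKN2D fall on either side of it.

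CDKN2A encodes the INK4 protein p16 and, from another reading frame, ARF, which stabilises p53 (ENSG00000147889; chromosome 9, 21967753 to 21995301, minus strand). CDKN2B, next to it, encodes p15 (ENSG00000147883; chromosome 9, 22002903 to 22009363, minus strand). CDKN2A had 0 counts in all 4 libraries, which allows at most 0.174 CPM in the shallowest library and 0.0360 CPM over the 83425332 counts of the 4 together, for counting error only. CDKN2B had 1 count, in JAZF1-SUZ12 replicate 2, and 0 in the other libraries. Neither gene could be compared between groups. As background, K562 is known to lack the CDKN2A locus through a deletion at 9p21, and RNA counts alone cannot tell a missing gene from a silent one.

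Genes around CDKN2A were therefore listed by distance. Within 1 Mb on each side of its 5' end, 41 other genes of the table were found, many of them type I interferon genes that are silent without a stimulus. Only MTAP and KLHL9 reached 10 counts in a library. MTAP, a methionine salvage enzyme gene that ends next to CDKN2A, had 31 and 21 counts in mock and 46 and 47 in JAZF1-SUZ12 libraries. Its mean was 1.25 ± 0.375 CPM in mock and 2.29 ± 0.524 CPM with the fusion. The groups did not overlap, but the gene did not pass (0.84 on the log2 scale; adjusted p = 0.121 by edgeR). KLHL9, an adaptor of an ubiquitin ligase, had between 5 and 11 counts. FOCAD, farther out, had 19 and 30 counts in mock and 30 and 49 with the fusion (edgeR, adjusted p = 0.245). Of 12 listed genes of the region, 10 were matched and these 2, MTAP and FOCAD, were tested. The antisense gene CDKN2B-AS1 was not analysed here.

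**Figure D3:**
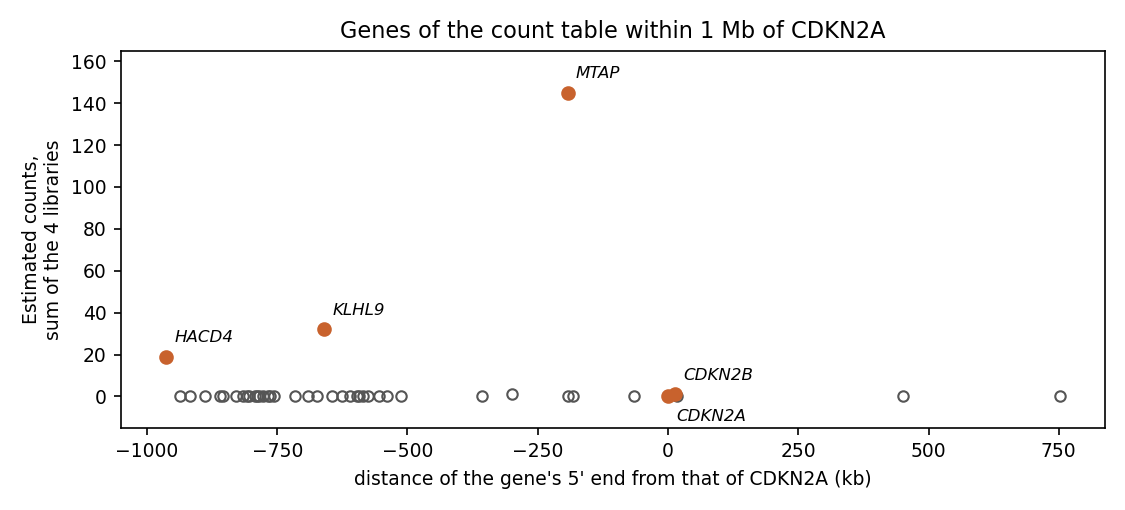
Estimated counts summed over the 4 libraries (vertical axis) for the genes of the count table within 1 Mb of CDKN2A, against the distance of each gene's 5' end from that of CDKN2A in kb; open points are genes that are not named. MTAP is the highest point, and CDKN2A and CDKN2B lie at 0 and 1.

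Levels of different genes were compared as CPM per kb of the longest annotated transcript. In mock, CDKN1C was at 25.1 ± 1.85, CDKN2C at 24.4 ± 0.355, CDKN1B at 16.8 ± 0.675, CDKN1A at 14.7 ± 1.05 and CDKN2D at 4.01 ± 0.218 CPM per kb. CDKN1C and CDKN2C did not differ beyond their spread, while CDKN1B lay above CDKN1A in both libraries. In JAZF1-SUZ12 libraries the order was CDKN1C at 32.4 ± 0.0840, CDKN1A at 27.1 ± 1.70, CDKN2C at 24.2 ± 0.472, CDKN1B at 16.96 ± 0.316 and CDKN2D at 3.76 ± 0.541 CPM per kb. CDKN1A thus went from the fourth to the second place. The order rests on the length used: with the mean transcript length in place of the longest, CDKN1B came first in mock, at 38.9 CPM per kb. CDKN2D was the lowest of the 5 with either length.

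The partners and regulators of CDK inhibitors were examined as 6 further lists, shown in the plot of log2 fold changes by list. The genes were chosen for what they are known to do, but with earlier results of these data known. Over all tested genes, 24.7% were called, 13.3% higher and 11.4% lower. The cyclins and CDKs that the inhibitors bind were called lower in 4 of 12 tested genes (33.3%) and higher in none, with a median log2 fold change of -0.13. CDK6 and CDK4, the kinases bound by INK4 proteins, fell by 0.23 and 0.15 on the log2 scale (edgeR, adjusted p = 0.00316 and 0.0302). CCND3, a D-type cyclin that partners them, and CCNB1, a mitotic cyclin, fell by 0.15 and 0.16 (edgeR, adjusted p = 0.0263 and 0.0497). The D-type cyclins CCND1 and CCND2 and the mitotic cyclin CCNB2 were named after their values were seen. They were not called (edgeR, adjusted p = 0.748, 0.903 and 0.664). Among the 4 genes called, CDK6 had the largest fall, to 0.854 of the mock level. The count was 1 without JAZF1-SUZ12 replicate 2 and 2 without mock replicate 1, and CDK6 was called in every fit. CCND3 also lost its call without mock replicate 2 (adjusted p = 0.0848), as did CDK4 (0.108). CCNB1 did not pass with total counts (adjusted p = 0.0766), DESeq2 (0.0829) or the filter at a mean of 50 counts (0.0674), the range over its 7 alternative fits with all libraries being 0.00953 to 0.0829.

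The list of RB family and E2F genes also holds the E2F partners TFDP1 and TFDP2, the LIN genes of the DREAM and MuvB complexes and MYBL2, all downstream of the kinases. It was called lower in 2 of 18 and higher in none, with a median of -0.10. The 11.1% called is close to the 11.4% of all tested genes called lower. E2F4, the E2F that works with RB relatives as a repressor, and E2F2, an activator, fell by 0.20 and 0.21 on the log2 scale (edgeR, adjusted p = 0.0280 and 0.0333). With DESeq2 neither passed (adjusted p = 0.0773 and 0.169; over the 7 alternative fits with all libraries 0.00654 to 0.0773 and 0.0203 to 0.169). E2F2 also did not pass with total counts (adjusted p = 0.0584) or the filter at a mean of 50 counts (0.0522). The count for the list was 0 without JAZF1-SUZ12 replicate 2, 1 without either mock library and 4, 1 of them higher, without JAZF1-SUZ12 replicate 1. Genes known to act on the turnover of CIP/KIP proteins, mostly ubiquitin ligase subunits with the deubiquitinase USP19 and the signalosome subunit COPS5, were called lower in 1 of 16, with a median of -0.055. That is 6.25%, below the share of all tested genes. That gene was CDC20, an activator of the anaphase-promoting complex, which fell from 103 ± 0.735 to 89.0 ± 0.569 CPM (edgeR, adjusted p = 0.00557). SKP2, the F-box protein that targets p27, was named after its values were seen and was at 90.6 and 85.3 CPM in mock and JAZF1-SUZ12 means (edgeR, adjusted p = 0.188). The count for this list was 2 without JAZF1-SUZ12 replicate 1 and 2 with the replicate number as a block.

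Transcription factors and chromatin regulators known to act on CDK inhibitor genes were called in both directions, 7 higher and 5 lower of 33 tested (36.4% in all), and their median was 0.058. FOXO3, an activator of CDKN1B and CDKN1A in other settings, rose from 37.6 ± 0.947 to 56.1 ± 1.84 CPM (0.56 on the log2 scale; adjusted p = 1.65e-05 by edgeR). BMI1, the Polycomb subunit known for repressing CDKN2A, rose from 107 ± 6.30 to 134 ± 2.61 CPM (0.31 on the log2 scale; adjusted p = 0.00073 by edgeR). ID1, which opposes the E proteins that activate CDKN1A, fell from 61.5 ± 0.597 to 43.2 ± 1.31 CPM (-0.53 on the log2 scale; adjusted p = 2.14e-05 by edgeR). STAT5A, a signal transducer downstream of the leukaemic kinase in this line, and GFI1B, a repressor of erythroid and megakaryocyte cells, fell by 0.48 and 0.33 on the log2 scale (edgeR, adjusted p = 4.94e-07 and 0.000271). MAX and RUNX1 were the other regulators called lower, by 0.28 and 0.34 on the log2 scale (edgeR, adjusted p = 0.0035 and 0.00076). TP73, KLF6, ETS1, FOXO4 and MXD4 were the others called higher. Like MAX and RUNX1, they were named after their values were seen. The calls of these further genes were not followed one by one in the alternative fits. TP73, a p53 relative, KLF6, a zinc finger factor known to activate CDKN1A, and ETS1 rose by 0.54, 0.37 and 0.87 on the log2 scale (edgeR, adjusted p = 0.00623, 0.00396 and 0.0242). ETS1 was low, at 2.15 and 4.01 CPM in the group means. FOXO3, BMI1, ID1, STAT5A and GFI1B kept their calls in all 11 alternative fits. The number of regulators called higher was 4 with DESeq2, 4 without JAZF1-SUZ12 replicate 1 and 4 without mock replicate 1.

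Genes known as p53 targets were listed because CDKN1A is such a gene; CDKN1A itself is not counted in the list. As background, K562 is known to lack working p53. Of 21 tested, 5 were called higher and 2 lower (33.3% in all), and the median log2 fold change was 0.093. BTG2, an antiproliferative gene, rose from 124 ± 1.98 to 162 ± 0.749 CPM (0.37 on the log2 scale; adjusted p = 7.03e-05 by edgeR). TNFRSF10B, a death receptor, BBC3, a pro-apoptotic BCL2 relative, and DDB2, a DNA damage sensor, rose by 0.34, 0.40 and 0.54 on the log2 scale (edgeR, adjusted p = 0.0018, 0.00322 and 0.0043). AEN, an apoptotic nuclease gene, fell by 0.33 (edgeR, adjusted p = 0.00606). BBC3 did not pass without mock replicate 1 (adjusted p = 0.0541) nor AEN without JAZF1-SUZ12 replicate 2 (0.121), and without that library the count called lower was 1. MDM2, named after its values were seen, is a widely used p53 target and was at 81.9 and 83.6 CPM in the mock and JAZF1-SUZ12 means (edgeR, adjusted p = 0.922). SESN2 was the fifth gene called higher and XPC the other called lower, and CDKN1A had a larger log2 fold change than any of those called. FAS, named after its values were seen, had a higher estimate of 0.98 but was not called (adjusted p = 0.188 by edgeR).

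Proliferation markers were called lower in 5 of 12 and higher in 1, that is in 6 of the 12 (50%), with a median of -0.096. Over all tested genes 24.7% were called, 13.3% higher and 11.4% lower, and the median was 0.0032. PCNA, the sliding clamp of DNA replication, fell from 204 ± 4.70 to 179 ± 0.273 CPM (-0.21 on the log2 scale; adjusted p = 0.00371 by edgeR). The helicase subunits MCM3 and MCM7 and the kinetochore gene CENPF fell by 0.16, 0.13 and 0.13 on the log2 scale (edgeR, adjusted p = 0.0181, 0.0295 and 0.0388). MCM5 was the other marker called lower. BUB1, a spindle checkpoint kinase, rose by 0.20 (edgeR, adjusted p = 0.00565). MKI67, named after its values were seen, was at 415 and 419 CPM in mock and JAZF1-SUZ12 means (edgeR, adjusted p = 0.928). Without JAZF1-SUZ12 replicate 2 the count lower was 1, and PCNA was the marker still called; it was 2 without either mock library and 3 with total counts or the filter at a mean of 50 counts, and BUB1 did not pass without mock replicate 1 (adjusted p = 0.0787). Whether these small shifts bear on the CDK inhibitor transcripts was not tested.

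**Figure D4:**
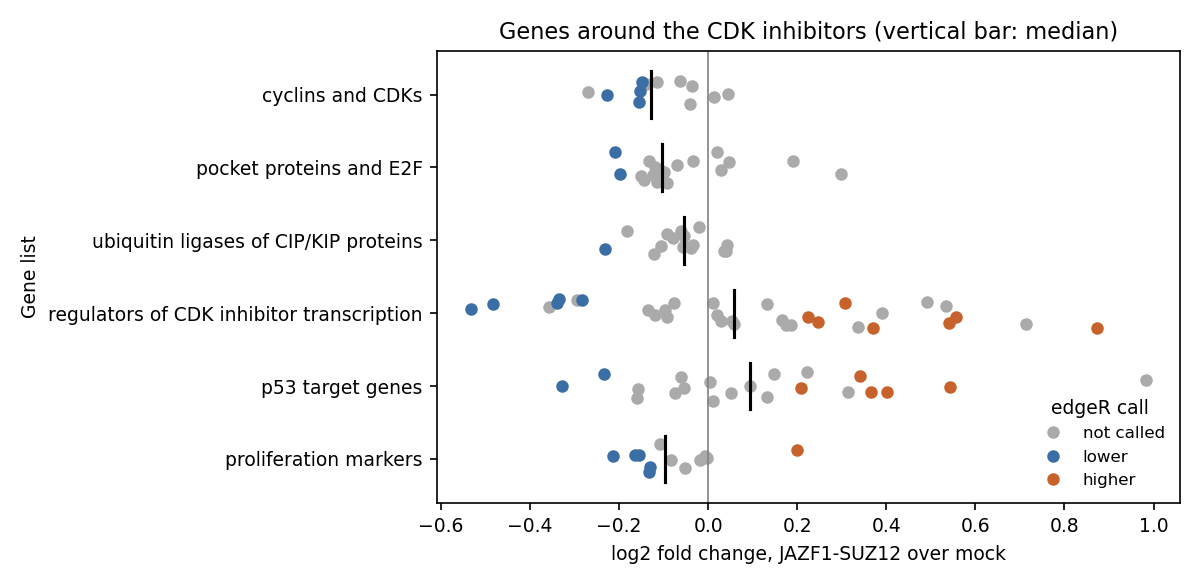
Log2 fold change of JAZF1-SUZ12 over mock (horizontal axis) for each tested gene of 6 lists (vertical axis; points are spread vertically for display), coloured by the edgeR call at an adjusted p of 0.05, with the list median as a black bar. Calls in the first 3 lists are all lower and small, with medians of -0.13, -0.10 and -0.055, while regulators and p53 targets hold calls in both directions.

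Genes close to the tested CDK inhibitors were examined within 250 kb of their 5' ends. For comparison, 24.7% of all tested genes were called, 13.3% higher and 11.4% lower. Around CDKN1A, 1 of 6 tested genes was called higher, C6orf89, and 1 lower. The latter, SRSF3, a splicing factor gene and the nearest protein-coding neighbour of CDKN1A on the left, fell from 388 ± 11.5 to 336 ± 17.8 CPM (edgeR, adjusted p = 0.00298). RAB44, the nearest on the right, had at most 4 counts in a library. Around CDKN1C, 1 of 4 was called lower, which was NAP1L4. Around CDKN1B, 1 of 6 was called lower, DDX47. Its nearest protein-coding neighbours were GPR19, with at most 2 counts, and APOLD1 (edgeR, adjusted p = 0.967). Around CDKN2C, FAF1 was the only tested neighbour, and C1orf185 on the other side had 0 counts in all libraries. Around CDKN2D, 2 of 14 were called higher, SLC44A2 and DNM2, and 7 lower. KRI1, next to CDKN2D, fell by 0.21 on the log2 scale (edgeR, adjusted p = 0.0412), but its call did not hold with total counts (adjusted p = 0.0655), DESeq2 (0.154) or the filter at a mean of 50 counts (0.0571), the range over the 7 alternative fits with all libraries being 0.0131 to 0.154. Nor did it hold without JAZF1-SUZ12 replicate 2 (0.303) or mock replicate 2 (0.240). AP1M2, on the other side, had at most 9 counts. No tested gene within 250 kb of CDKN1A or CDKN1C had a larger log2 fold change than the CDK inhibitor gene itself. Both were already known to be called higher, and with 6 and 4 tested neighbours such a rank says little.

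**Figure D5:**
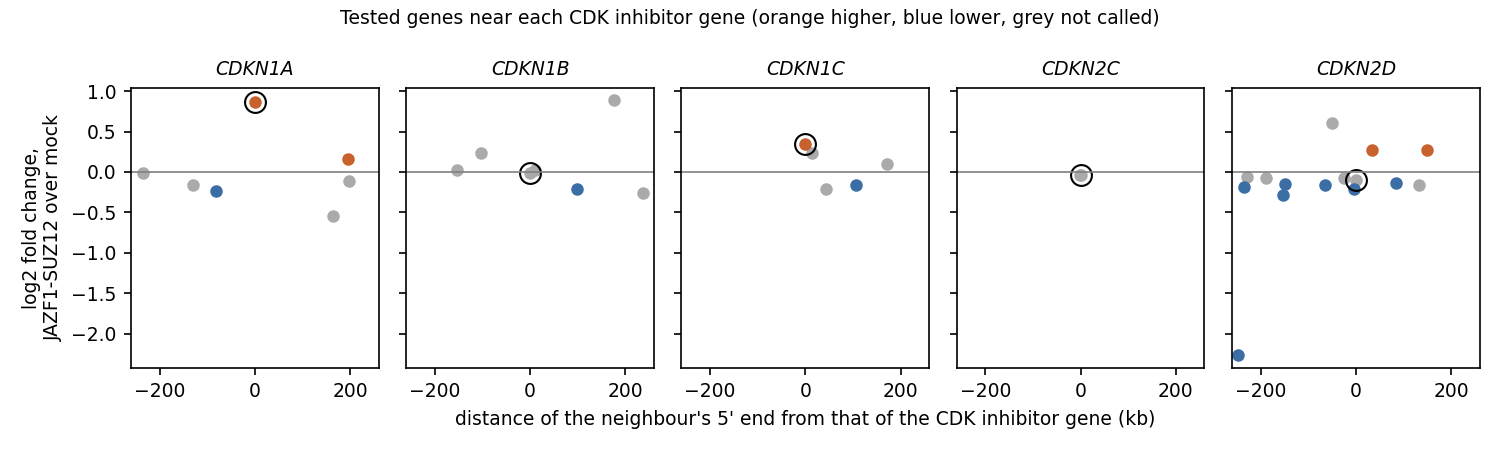
Log2 fold change of JAZF1-SUZ12 over mock (vertical axis) of the tested genes within 250 kb of each tested CDK inhibitor gene, against the distance between 5' ends in kb (horizontal axis); the CDK inhibitor gene is circled, and colours give the edgeR call. CDKN1A and CDKN1C are the highest points of their panels, at 0.86 and 0.35.

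The genes whose values over the 4 libraries were most like those of the called CDK inhibitors were found by Euclidean distance between centred log2 CPM, among 11624 genes. For CDKN1A these were SEZ6L2, APOC1 and FKBP1B, at distances of 0.016, 0.048 and 0.062. They rose by 0.86, 0.83 and 0.89 on the log2 scale (edgeR, adjusted p = 0.000137, 3.02e-07 and 0.0218). For CDKN1C they were RFPL4B, C9orf72 and BCLAF3, at 0.012, 0.030 and 0.031. Each had a mean of at most 11.7 CPM in either group and none was called, with adjusted p-values of 0.0775, 0.172 and 0.171 (edgeR). With 4 libraries in 2 groups, such a distance cannot separate a shared pattern from a group difference of the same size.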

How the data were processed

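RNA-seq was analysed from 2 JAZF1-SUZ12 and 2 mock libraries of K562 cells, with columns assigned by sample title. The authors deposited estimated counts per gene, not normalized. The submitters' processing notes name fastp 0.20.1, FastQC 0.11.7, MultiQC 1.5, kallisto 0.46.2, DESeq2 1.30.1 and hg38, with no role or order; the annotation release is not given in the sources used here, nor whether strand was used in counting. Estimated counts need not be whole and were rounded here. A second deposited table holds the authors' own comparison, with a mean depth-scaled signal, a log2 fold change and its standard error, a test score, and raw and adjusted p-values, per the file headers.

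Genes were kept with filterByExpr (14750 of 35606), scaled with TMM and tested with edgeR 4.0.16 in R 4.3.3 (quasi-likelihood F test, group as the only term, two-sided, Benjamini-Hochberg over all genes tested, threshold 0.05). Standard errors are the log2 fold change divided by the square root of F, and 95% intervals use the test's degrees of freedom. The 2 libraries of a group limit every SD. Positions and lengths come from GENCODE 29 on GRCh38, which 35410 identifiers matched. DESeq2 1.42.0, limma-voom (limma 3.58.1), other scalings, filters, a stricter threshold, the replicate number as a block and leaving out each library were alternatives; the fits were tested on simulated data.

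The members and gene lists were chosen with earlier results of these data known. Named were all members, JAZF1 and SUZ12, up to 5 called genes of each list with the smallest p-values, every gene of the 9p21 and 11p15.5 lists with at least 10 counts in a library, the nearest protein-coding neighbours and the 3 most similar genes of each called member. Other names were chosen after values were seen. Floors (3 counts) cover counting error only.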

Additional observations from a re-analysis of the deposited data

How the results depend on the processing

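CDKN1A and CDKN1C kept their direction and call in all 11 alternative fits and at an adjusted p under 0.01. With all libraries, the log2 fold change of CDKN1A ranged from 0.85 to 0.88 and that of CDKN1C from 0.34 to 0.37. With 1 library left out they ranged from 0.78 to 0.94 and from 0.27 to 0.42, where the lone library of a group is assumed to vary like the others. CDKN1B, CDKN2C and CDKN2D were called in no fit. The estimate for CDKN1B turned positive with total counts (0.015) and with a mean of at least 50 counts (0.017), and ranged from -0.058 to 0.026 with 1 library left out. That of CDKN2D ranged from -0.25 to 0.010 when leaving out 1 library, and that of CDKN2C from -0.070 to -0.0013.

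The count of 3643 genes called became 2407 with DESeq2 and 2045 at the threshold of 0.01, and that of 1688 lower became 1051 and 790; the 1955 higher became 1255 at that threshold. Leaving out 1 library gave from 2568 to 3782 genes called, from 1498 to 1841 higher and from 1070 to 1941 lower. Of the genes in the 8 lists, 35 were called, 14 higher and 21 lower. At the threshold of 0.01 this became 20, with 10 lower, and with 1 library left out it ranged from 23 to 39, from 9 to 15 and from 10 to 26. A stricter threshold lowers these counts by construction; why DESeq2 called fewer was not tested.

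With the mean in place of the longest transcript length, the levels per kb in mock became 23.8 for CDKN1A, 38.9 for CDKN1B, 34.1 for CDKN1C, 34.2 for CDKN2C and 4.54 for CDKN2D, and with the fusion 43.9, 39.3, 44.1 and 34.0 for the first 4. Shorter lengths raise these values by construction.

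APOLD1 changed sign with limma-voom (-0.080) and ranged from -0.43 to 0.41 with 1 library left out, and FAF1 from -0.096 to 0.017; neither was called. In the other single genes, 54 comparisons with an alternative lost a call. Some of these losses came at the stricter threshold, which can only remove calls. Most of these genes were named because they were called, so few could gain a call, and none did.

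A replicate block brought the genes called to 4061, CDKN1A at a log2 fold change of 0.86 and CDKN1C at 0.35. The block changed no call of a CDK inhibitor gene. Replicate differences correlated across genes between the groups at -0.0040, and 2 pairs share only a number.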
